A study of Mus musculus with 19 samples.

Results

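The 10 genes described here make up the route of fatty acid synthesis and desaturation. They are the transcription factor gene Srebf1, the synthesis genes Acly, Acaca and Fasn, the desaturase genes Scd1, Scd2, Fads1 and Fads2, and the elongase genes Elovl5 and Elovl6. The group is a list of gene names, and all 10 were found among the 24421 gene symbols of the count tables and passed the filter on low counts. RNA was sequenced in bulk from conventional dendritic cells sorted from spleens of C57BL6 mice, with 5000 to 50000 cells a library. The study asked how the loss of Xbp1, alone or with Ire1, changes the transcriptome of the cDC1 and cDC2 subsets. Of the 19 libraries, cDC1 and cDC2 each had 3 from mice lacking Xbp1 and Ire1 together (Xbp1-Ire1 KO) and 3 from mice lacking Xbp1 (Xbp1 KO), with 3 WT libraries in cDC1 and 4 in cDC2. The labels name no Cre driver, no deleted exons, and neither age nor sex. Nothing in them says that replicates came from different animals, and a p-value here is set against the spread of these libraries, which may be technical. WT replicates 1 and 2 of each subset carry a description naming floxed alleles (fl-fl), and the other WT libraries are named WT. The libraries named WT are called WT-named below, and in cDC1 this is replicate 3 alone. The labels do not call these names batches.

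Fatty acids are built in the cytosol from citrate. ATP citrate lyase splits citrate into acetyl-CoA, acetyl-CoA carboxylase turns this into malonyl-CoA, and fatty acid synthase joins these units into palmitate. Elongases then lengthen the chain and desaturases add double bonds, which sets how fluid the membranes of the endoplasmic reticulum (ER) and other organelles are. SREBP1, the product of Srebf1, is a membrane-bound transcription factor of the ER that is cleaved in the Golgi and then drives many of these genes. IRE1 is an ER sensor that splices Xbp1 mRNA, and the spliced form encodes a transcription factor known in liver for inducing lipid synthesis genes.

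Libraries held 10606864 to 16209469 counts in all. Levels are given as CPM, the share of a library's counts in parts per 1e+06, scaled by TMM over all 19 libraries. The cDC1 receptor gene Xcr1 had 912 to 1340 CPM in cDC1 and 5.46 to 18.3 CPM in cDC2. The cDC2 receptor gene Sirpa had 5.57 to 67.7 CPM in cDC1 and 1220 to 1610 CPM in cDC2. Clec12a, listed with the cDC2 markers, went the other way, at 168 to 285 CPM in cDC1 and 51.6 to 90.6 CPM in cDC2. The summed level of 8 markers of mature dendritic cells was 356 to 674 CPM in cDC1 of Xbp1-Ire1 KO, 1180 to 1540 CPM in Xbp1 KO and 1730 to 3220 CPM in WT. That of 8 cell cycle genes was 209 to 422, 151 to 218 and 250 to 414 CPM in the same groups. Of 13 pancreatic acinar transcripts, the sum was 2120 CPM in cDC1 Xbp1 KO replicate 3 and at most 8.29 CPM in every other library. The 8 adipocyte markers summed to at most 1.94 CPM in any library, and Plin1, Lep, Cfd and Plin4 were at 0 in all 19. Markers of red pulp macrophages summed to 192 to 701 CPM in cDC1 of Xbp1-Ire1 KO, 180 to 891 CPM in Xbp1 KO and 250 to 373 CPM in WT. In cDC2 they summed to 647 to 1210, 461 to 1860 and 476 to 847 CPM in the same order. Markers of monocytes and neutrophils summed in cDC1 to 54.5 to 196, 119 to 196 and 55.4 to 80.1 CPM in that order. Those of B and plasma cells summed to 53.5 to 101, 53.2 to 125 and 66.9 to 110 CPM. T cell markers summed to 5.03 to 10.2, 3.17 to 6.35 and 7.21 to 11 CPM in cDC1. Erythroid markers summed there to 6.48 to 22.1, 2.29 to 3.77 and 1.02 to 5.91 CPM. The part of such cells in the results was not tested. Xbp1 itself averaged 339 ± 23.9 CPM in cDC1 of Xbp1-Ire1 KO, 103 ± 12.6 CPM in Xbp1 KO and 179 ± 52.8 CPM in WT (SD, n = 3 each). Ern1, the gene of IRE1, averaged 62.4 ± 10.1, 31.7 ± 3.48 and 25.7 ± 3.72 CPM in these groups. Since a whole-gene count also takes in transcripts from a gene with deleted exons, these values do not check the labels.

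Promoter sequences are shown for Srebf1 and Elovl5, which differed between genotypes, and for Fasn, which differed between the subsets. Elovl6 also differed between genotypes, but its window, which held none of the motifs searched, is not shown. RefSeq promoters of build GRCm38.p6 were found for 7 of the 10 genes, in 9 windows. Each run below is the 250 bases before a transcript start, 5′ to 3′ on the gene's strand, from chr11:60210472-60210721 (minus strand), chr11:120824548-120824797 (minus strand) and chr9:77917115-77917364 (plus strand). Capitals mark the NF-Y box CCAAT and the GC box GGGCGG, the motifs bound by NF-Y and Sp1, partners of SREBP proteins, on either strand.
Srebf1: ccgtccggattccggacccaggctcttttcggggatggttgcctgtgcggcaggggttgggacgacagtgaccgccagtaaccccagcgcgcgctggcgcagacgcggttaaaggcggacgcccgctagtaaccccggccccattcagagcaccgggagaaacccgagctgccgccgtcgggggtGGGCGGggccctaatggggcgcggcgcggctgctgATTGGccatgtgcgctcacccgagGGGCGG
Fasn: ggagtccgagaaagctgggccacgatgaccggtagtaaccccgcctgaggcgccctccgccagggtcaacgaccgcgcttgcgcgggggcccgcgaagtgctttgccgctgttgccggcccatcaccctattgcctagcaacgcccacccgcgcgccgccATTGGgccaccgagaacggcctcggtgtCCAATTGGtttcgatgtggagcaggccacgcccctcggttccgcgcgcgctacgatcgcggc
Elovl5: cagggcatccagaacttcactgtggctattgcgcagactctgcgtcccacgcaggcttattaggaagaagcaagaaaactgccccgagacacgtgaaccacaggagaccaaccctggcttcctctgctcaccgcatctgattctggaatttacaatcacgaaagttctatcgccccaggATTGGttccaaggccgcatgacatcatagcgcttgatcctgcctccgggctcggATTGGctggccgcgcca
The Srebf1 window, which lies within the gene body and is the most downstream of its 3, is shown because it alone of these holds both motifs, and it has an NF-Y box 30 bases before the start and GC boxes at 65 and 6 bases. The 30 bases after its start are not in a GENCODE transcript of Srebf1, while those after the most upstream start are, and the window there (chr11:60222582-60222831) has 1 NF-Y box at 166 bases and no GC box. The middle window has GC boxes at 36 and 14 bases, no NF-Y box, and a start without a GENCODE match. The Fasn window has NF-Y boxes at 90, 62 and 59 bases, of which the last 2 overlap on opposite strands, and the Elovl5 window at 71 and 17 bases. An E-box, CANNTG, was present in 5 of the 9 windows and in 66.2% of 32851 mouse promoters of the same length; in the Fasn window it overlaps an NF-Y box. An NF-Y box was present in 4 of the 9 windows and in 33.8% of promoters, and a GC box in 4 of the 9 and in 32.7%. Since 3 of the 9 windows belong to Srebf1, these are not counts of separate genes, and they do not set the group apart from other promoters. The sterol element TCACNCCAC (1.05% of promoters), the unfolded protein response core TGACGTGG (0.563%), the ER stress element (0.113%) and the cyclic AMP element TGACGTCA (1.55%) were found in 0 of the 9, on either strand. The Elovl6 window held none of the motifs searched. For the motifs found in 1.55% of promoters or fewer, 0 of 9 windows does not set these genes apart from other promoters. Variants of the motifs were not searched, and these are matches of letters only.

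In cDC1, few of the genes passed the test, and the ones that did were Srebf1 and the elongases. A gene was called where the quasi-likelihood test of edgeR, adjusted by Benjamini-Hochberg over all tested genes, gave an adjusted p under 0.05, and all adjusted p-values below come from that test unless another is named. Between Xbp1-Ire1 KO and WT, 2 of the 10 were called, Elovl6 higher and Elovl5 lower, where 7.75% of 11353 tested genes were called, 3.04% higher and 4.71% lower. Between Xbp1 KO and WT, 2 were called, Srebf1 and Elovl5, both lower, against 11.2% of tested genes, 4.28% higher and 6.91% lower. Between Xbp1-Ire1 KO and Xbp1 KO, 2 were called, Srebf1 and Elovl6, both higher, against 12.7% of tested genes, 7.13% higher and 5.52% lower. Over 10 genes these counts are too small to set the group apart from the background, so they are read gene by gene. The background itself moved when 1 library was left out, from 880 called genes to between 430 (without Xbp1-Ire1 KO replicate 1) and 1966 (without WT replicate 3) for Xbp1-Ire1 KO against WT. For Xbp1 KO against WT it moved from 1270 to between 471 (without WT replicate 1) and 2926 (without WT replicate 3), and between the knockouts from 1437 to between 648 (without Xbp1 KO replicate 2) and 2400 (without WT replicate 3). The median log2 fold change of the 10 was −0.28 in Xbp1-Ire1 KO against WT, −0.31 in Xbp1 KO against WT and 0.07 between the knockouts, beside medians of 0.01, −0.02 and 0.02 over all tested genes. The 3 comparisons share libraries, so their results are not independent of each other. In bulk RNA, fewer cells that express a gene and less RNA per cell cannot be told apart.

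**Figure D1:**
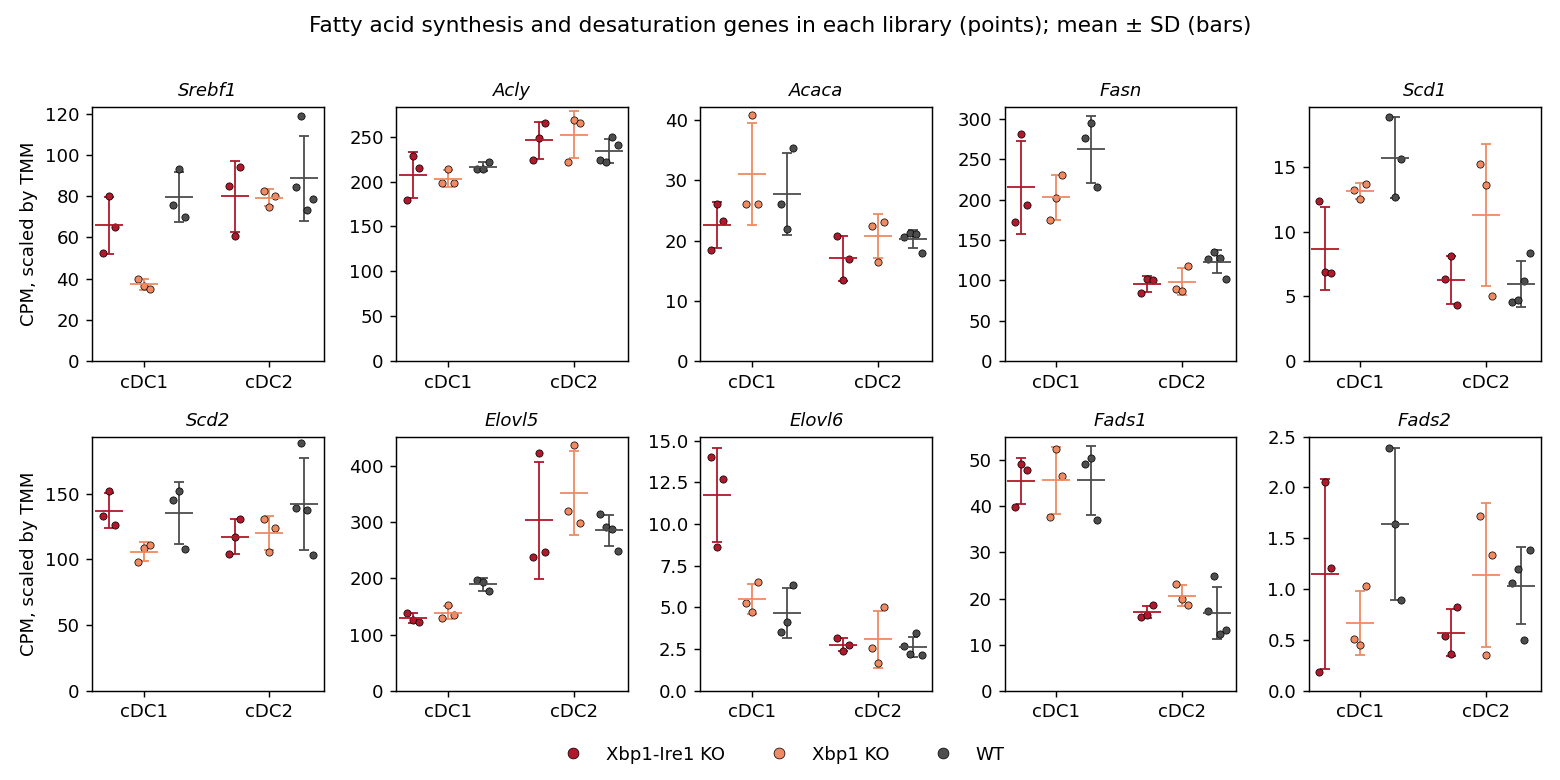
Levels of the 10 genes (y axis, CPM scaled by TMM, each panel from 0) in cDC1 and cDC2, with 1 point per library and bars for the mean ± SD of each genotype. The 3 cDC1 Xbp1 KO libraries of Srebf1 lie at 35.1 to 40 CPM, below all other libraries, and the 3 cDC1 Xbp1-Ire1 KO libraries of Elovl6 at 8.6 to 14 CPM lie above all others.

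Srebf1 (ENSMUSG00000020538; GRCm38 chr11:60199089-60222581, minus strand) encodes SREBP1. It lay at 52.2, 79.9 and 65.2 CPM in cDC1 of Xbp1-Ire1 KO, at 40, 36.5 and 35.1 CPM in the Xbp1 KO libraries and at 75.9, 93.3 and 69.7 CPM in WT. The Xbp1 KO libraries were below every library of the other genotypes, while Xbp1-Ire1 KO and WT overlapped. Srebf1 fell in Xbp1 KO against WT by 1.11 on the log2 scale (SE 0.17, adjusted p = 0.00105, n = 3 each). It was higher in Xbp1-Ire1 KO than in Xbp1 KO by 0.84 ± 0.169 (adjusted p = 0.00632). Xbp1-Ire1 KO differed from WT by −0.27 ± 0.166, which did not pass (adjusted p = 0.368). Both calls held under every alternative run, 17 for the first and 15 for the second. Without Xbp1 KO replicate 3, the library with the acinar transcripts, the values were −1.06 (adjusted p = 0.00889) and 0.78 (adjusted p = 0.027). Markers of mature dendritic cells were also lower in Xbp1 KO, with 4 of 8 called lower against WT, and 3 of 8 cell cycle genes were called lower. In Xbp1-Ire1 KO, where Srebf1 was not called against WT, 6 of the 8 mature markers were called lower than in WT, and 4 lower and 1 higher than in Xbp1 KO. The 3 cell cycle genes, Ccnb2, Birc5 and Tyms, were called higher in Xbp1-Ire1 KO than in Xbp1 KO, as Srebf1 was. These differences were 0.87, 0.88 and 1.18 (adjusted p = 0.00482, 0.0455 and 0.00256). Against WT, these cell cycle genes were not called in Xbp1-Ire1 KO (−0.35, −0.11 and 0.12). Of 6 cDC1 markers, 5 were called lower in Xbp1-Ire1 KO than in Xbp1 KO. The part of these markers in the Srebf1 result was not tested. Exons of Srebf1 overlap those of Rai1 on the opposite strand by 109 bases, and Rai1 averaged 18.7 ± 4.04 CPM in Xbp1-Ire1 KO, 20.6 ± 4.5 CPM in Xbp1 KO and 18.9 ± 4.75 CPM in WT.

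The enzymes that make palmitate did not pass the test in any genotype comparison in cDC1. Acly (ENSMUSG00000020917; chr11:100476353-100528000, minus strand), ATP citrate lyase, lay at 179, 228 and 215 CPM in Xbp1-Ire1 KO, at 198, 214 and 198 CPM in the Xbp1 KO libraries and at 214, 214 and 222 CPM in WT. Before rounding, each Xbp1 KO library was just below each WT library. Its log2 fold changes of −0.06 ± 0.118 in Xbp1-Ire1 KO against WT, −0.10 ± 0.118 in Xbp1 KO against WT and 0.04 ± 0.118 between the knockouts were the ones with the smallest standard errors among the 10 genes. Acaca (ENSMUSG00000020532; chr11:84129672-84401651, plus strand), acetyl-CoA carboxylase, lay at 18.5, 26 and 23.2 CPM in Xbp1-Ire1 KO, at 26.1, 40.8 and 26.1 CPM in the Xbp1 KO libraries and at 26, 22 and 35.3 CPM in WT. Every Xbp1-Ire1 KO library was below every Xbp1 KO library, but the difference of −0.44 ± 0.229 did not pass (adjusted p = 0.226). Fasn (ENSMUSG00000025153; chr11:120805846-120824547, minus strand), fatty acid synthase, lay at 172, 281 and 193 CPM in Xbp1-Ire1 KO, at 175, 202 and 231 CPM in the Xbp1 KO libraries and at 276, 295 and 216 CPM in WT. The groups overlapped, and Fasn differed from WT by −0.28 ± 0.184 in Xbp1-Ire1 KO (adjusted p = 0.401) and by −0.38 ± 0.185 in Xbp1 KO (adjusted p = 0.194). A p that misses the threshold does not show that a level was the same.

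None of the desaturases was called in cDC1 either. Scd1 (ENSMUSG00000037071; chr19:44394455-44407879, minus strand) encodes stearoyl-CoA desaturase, which makes oleate from stearate. It lay at 12.4, 6.86 and 6.84 CPM in Xbp1-Ire1 KO, at 13.2, 12.5 and 13.7 CPM in the Xbp1 KO libraries and at 18.9, 12.7 and 15.6 CPM in WT. All 3 Xbp1-Ire1 KO libraries were below all WT libraries, and 2 of them lay well apart from the third. The difference from WT was −0.86 ± 0.271 (adjusted p = 0.0727). It passed without Xbp1-Ire1 KO replicate 1 (−1.20, adjusted p = 0.0243) and with DESeq2 (−0.85, DESeq2 adjusted p = 0.0357). Scd2 (ENSMUSG00000025203; chr19:44293674-44306864, plus strand), the isoform known from brain and early development, lay at 133, 152 and 126 CPM in Xbp1-Ire1 KO, at 97.7, 109 and 111 CPM in the Xbp1 KO libraries and at 145, 152 and 108 CPM in WT. Xbp1-Ire1 KO was above Xbp1 KO in every library (0.39 ± 0.145, adjusted p = 0.095, not called), and WT replicate 3 lay within the Xbp1 KO range. Without that WT library, the WT-named one, Scd2 was called lower in Xbp1 KO than in WT (−0.48, adjusted p = 0.0103) and higher in Xbp1-Ire1 KO than in Xbp1 KO (0.37, adjusted p = 0.029). Scd3 and Scd4 are near copies of these genes, so reads may be split between them in ways the tables do not show. Scd4 averaged 9.27 ± 1.29 CPM in Xbp1-Ire1 KO, 7.4 ± 1.81 CPM in Xbp1 KO and 13.1 ± 1.9 CPM in WT.

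Fads2 carries out the first desaturation of the polyunsaturated route and Fads1 a later one, and the 2 genes lie near each other on chromosome 19. Fads1 (ENSMUSG00000010663; chr19:10182888-10196877, plus strand) lay at 39.8, 49.1 and 47.8 CPM in Xbp1-Ire1 KO, at 37.8, 52.4 and 46.7 CPM in the Xbp1 KO libraries and at 49.2, 50.6 and 37.1 CPM in WT. The 3 groups overlapped throughout, with log2 fold changes of 0.00, −0.01 and 0.01 and a standard error of 0.17 each. Fads2 (ENSMUSG00000024665; chr19:10062765-10101746, minus strand) was the least abundant of the 10, with 2, 34 and 18 raw counts in Xbp1-Ire1 KO, 6, 5 and 12 in Xbp1 KO and 28, 21 and 11 in WT. At these counts its difference of −1.30 ± 0.822 between Xbp1 KO and WT could not be told from 0 (adjusted p = 0.323).

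The 2 elongases moved in opposite directions in Xbp1-Ire1 KO. Elovl5 (ENSMUSG00000032349; chr9:77917364-77984519, plus strand) lengthens polyunsaturated chains. It lay at 139, 126 and 122 CPM in Xbp1-Ire1 KO, at 130, 152 and 135 CPM in the Xbp1 KO libraries and at 198, 194 and 177 CPM in WT. All 6 knockout libraries were below all 3 WT libraries, and the knockouts overlapped. Elovl5 fell by 0.55 on the log2 scale in Xbp1-Ire1 KO (SE 0.12, adjusted p = 0.0128) and by 0.46 in Xbp1 KO (SE 0.12, adjusted p = 0.0278). The knockouts differed from each other by −0.09 ± 0.12 (adjusted p = 0.667). The call in Xbp1-Ire1 KO was lost without Xbp1-Ire1 KO replicate 3 (−0.51, adjusted p = 0.0729), without WT replicate 1 (−0.53, adjusted p = 0.0533) and with WT-named replicate 3 as the only WT library (−0.45, adjusted p = 0.136). The call in Xbp1 KO was lost without Xbp1-Ire1 KO replicate 3 (adjusted p = 0.0524), without Xbp1 KO replicate 1, 2 or 3 (adjusted p = 0.136, 0.0542 and 0.0846), without WT replicate 1 or 2 (adjusted p = 0.117 and 0.1) and against the WT-named library (−0.35, adjusted p = 0.308). The direction was the same in each of these.

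Elovl6 (ENSMUSG00000041220; chr3:129532355-129638495, plus strand) lengthens palmitate to stearate. It lay at 14, 8.6 and 12.7 CPM in Xbp1-Ire1 KO, at 5.26, 4.72 and 6.51 CPM in the Xbp1 KO libraries and at 3.5, 4.14 and 6.32 CPM in WT. Every Xbp1-Ire1 KO library was above every library of the other genotypes, which overlapped each other. Elovl6 rose in Xbp1-Ire1 KO by 1.34 ± 0.317 against WT (adjusted p = 0.0199), 2.53-fold, and by 1.11 ± 0.315 against Xbp1 KO (adjusted p = 0.0354). Xbp1 KO differed from WT by 0.23 ± 0.321 (adjusted p = 0.687). The call against WT was lost without Xbp1-Ire1 KO replicate 1 or 3 (adjusted p = 0.0954 and 0.0794), without WT replicate 1 or 2 (adjusted p = 0.0939 and 0.072) and against the WT-named library (0.90, adjusted p = 0.251). The call against Xbp1 KO was lost without Xbp1-Ire1 KO replicate 1 or 3 (adjusted p = 0.134 and 0.119) and without Xbp1 KO replicate 1 or 2 (adjusted p = 0.128 and 0.137). Its raw counts were 41 to 189 in the cDC1 libraries. An antisense gene, Gm35986, overlaps its exons by 34 bases, and 6 of 8 markers of mature dendritic cells were called lower in Xbp1-Ire1 KO than in WT. The part of either in the result was not tested.

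**Figure D2:**
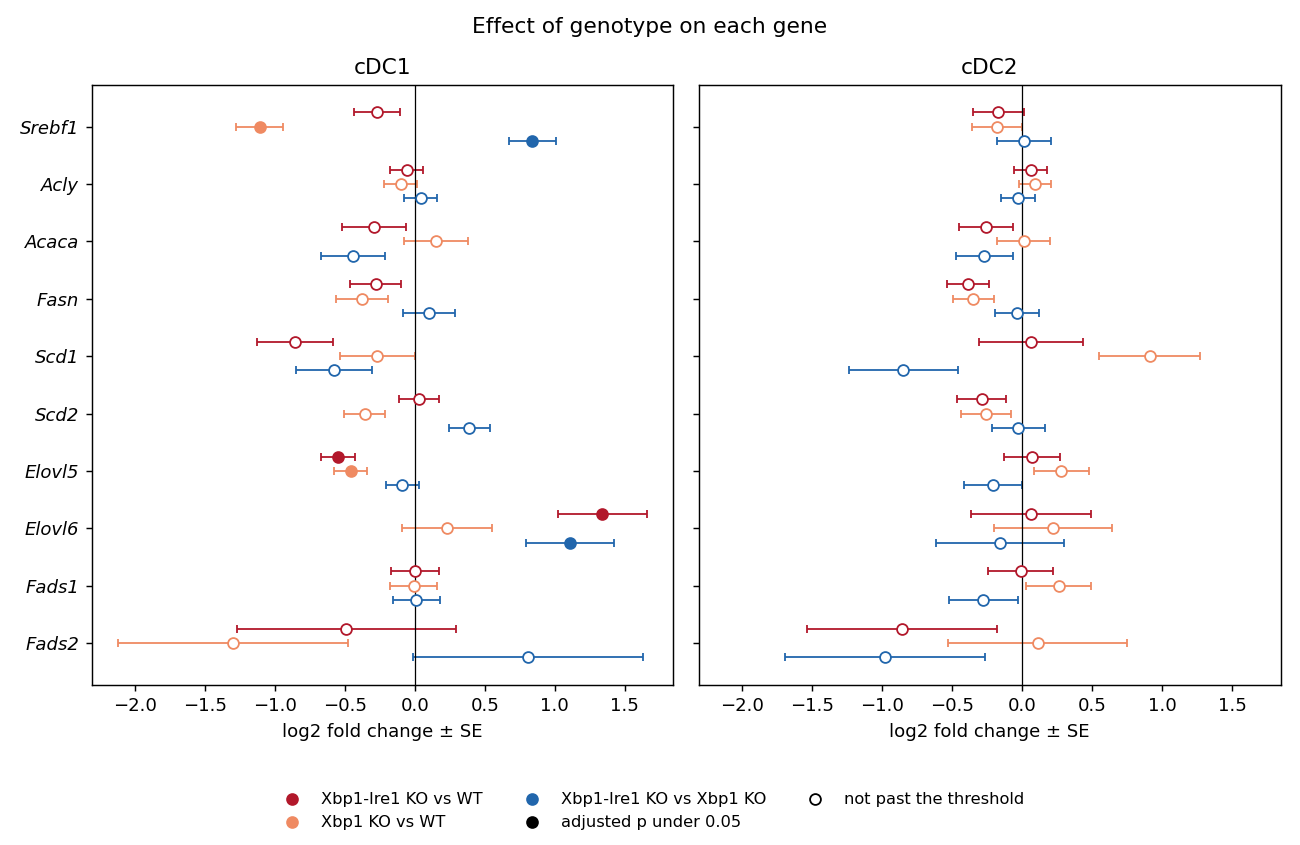
Log2 fold changes ± SE (x axis) of the 10 genes (y axis) for 3 genotype comparisons in cDC1 (left) and cDC2 (right), with filled points for an adjusted p under 0.05. The 6 filled points are all in cDC1 and belong to Srebf1, Elovl5 and Elovl6, and the standard errors are widest for Fads2.

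In cDC2 none of the 10 genes was called in any genotype comparison. By the quasi-likelihood test of edgeR with Benjamini-Hochberg adjustment the count was 0 between Xbp1-Ire1 KO and WT (0.0258% of 11646 tested genes called), 0 between Xbp1 KO and WT (0.103%) and 0 between Xbp1-Ire1 KO and Xbp1 KO (0.0343%). At an unadjusted p under 0.05 the counts were 1, 2 and 1 of the 10, beside 877, 1127 and 960 of all tested genes, and DESeq2 called 0 of the 10 in each. Against the fl-fl WT libraries alone, 485 of all genes were called for Xbp1-Ire1 KO and 740 for Xbp1 KO, and 0 of the 10. Over 10 genes, a count of 0 does not set the group apart from any of these backgrounds. Median log2 fold changes of the 10 were −0.09, 0.10 and −0.19, against 0.00, −0.02 and 0.00 over all genes.

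Srebf1 lay at 84.7, 60.8 and 94 CPM in cDC2 of Xbp1-Ire1 KO, at 82.7, 74.9 and 80.3 CPM in the Xbp1 KO libraries and at 84.2, 119, 73.2 and 78.6 CPM in WT. These groups overlapped, and Srebf1 differed from WT by −0.17 ± 0.181 in Xbp1-Ire1 KO and by −0.18 ± 0.181 in Xbp1 KO. Fasn lay at 83.8, 102 and 101 CPM in Xbp1-Ire1 KO, at 89.7, 87.4 and 118 CPM in the Xbp1 KO libraries and at 127, 135, 128 and 102 CPM in WT. All 6 knockout libraries were below WT replicates 1 to 3, while WT replicate 4 lay among them, and the differences of −0.39 ± 0.149 (unadjusted p = 0.0212, adjusted p = 0.648) and −0.35 ± 0.148 (unadjusted p = 0.0356, adjusted p = 0.502) did not pass. Scd1 lay at 6.34, 8.09 and 4.37 CPM in Xbp1-Ire1 KO, at 15.2, 13.6 and 5.01 CPM in the Xbp1 KO libraries and at 4.56, 4.73, 6.19 and 8.36 CPM in WT. Of the Xbp1 KO libraries, 2 were above all others and the third was within the WT range (0.91 ± 0.362 against WT, adjusted p = 0.496). Scd1 differed between the knockouts by −0.85 ± 0.392 (unadjusted p = 0.0481, adjusted p = 0.605). Elovl5 lay at 238, 424 and 248 CPM in Xbp1-Ire1 KO, at 320, 437 and 299 CPM in the Xbp1 KO libraries and at 315, 292, 288 and 249 CPM in WT. Replicate 2 of each knockout was the highest, and the groups overlapped. Elovl6 was at 1.67 to 5.01 CPM in the 10 cDC2 libraries, Fads1 at 12.4 to 24.8 CPM and Acaca at 13.4 to 23.1 CPM. Acly was at 222 to 269 CPM, Scd2 at 103 to 189 CPM and Fads2 at 0.349 to 1.72 CPM. At such levels Fads2 differed from WT by −0.86 ± 0.682 in Xbp1-Ire1 KO and by 0.11 ± 0.638 in Xbp1 KO. The knockouts differed in Fads2 by −0.98 ± 0.716.

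A call in cDC1 and none in cDC2 does not show that the subsets differ, so the difference of the effects was tested in a fit of all 19 libraries. None of the 10 genes passed in any of the 3 interactions by edgeR's quasi-likelihood test, where 2.23%, 2.17% and 2.14% of 12185 genes did. At an unadjusted p under 0.05 the counts were 2, 3 and 2 of the 10, beside 1525, 1577 and 1607 genes, and DESeq2 called 0, 1 and 0. The effect of Xbp1 KO on Srebf1 was lower in cDC1 than in cDC2 by 0.94 on the log2 scale (SE 0.26, adjusted p = 0.0705). That difference passed with DESeq2 (−0.93, DESeq2 adjusted p = 0.0256) and in edgeR without cDC1 WT replicate 3 (adjusted p = 0.0417), cDC2 Xbp1-Ire1 KO replicate 2 (adjusted p = 0.0457) or cDC2 WT replicate 2 (−1.11, adjusted p = 0.0111). In the other 20 of 24 alternatives it was not called, with an adjusted p of up to 0.189. For Elovl5 the difference was −0.75 ± 0.247 in Xbp1 KO (adjusted p = 0.152) and −0.64 ± 0.247 in Xbp1-Ire1 KO (adjusted p = 0.246), and the first passed without cDC2 Xbp1-Ire1 KO replicate 2 (−0.74, adjusted p = 0.0359) but in none of the other 23 alternatives. For Elovl6 it was 1.26 ± 0.515 in Xbp1-Ire1 KO (adjusted p = 0.29). For Scd1 it was −0.94 ± 0.49 in Xbp1-Ire1 KO (adjusted p = 0.461) and −1.19 ± 0.482 in Xbp1 KO (adjusted p = 0.282). For Fads2, at few counts, it was 0.36 ± 1.04 in Xbp1-Ire1 KO and −1.42 ± 1.05 in Xbp1 KO. Between the knockouts it was 0.81 ± 0.269 for Srebf1 (adjusted p = 0.147) and 1.25 ± 0.528 for Elovl6 (adjusted p = 0.302). There it was 1.78 ± 1.1 for Fads2 (adjusted p = 0.537), 0.10 ± 0.256 for Elovl5 and 0.25 ± 0.502 for Scd1. For Srebf1 in Xbp1-Ire1 KO it was −0.12 ± 0.259, and for Elovl6 in Xbp1 KO 0.01 ± 0.531. For Acly, Acaca, Fasn, Scd2 and Fads1 it lay between −0.28 and 0.41 in the 3 interactions.

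Between WT cells of the subsets, 4 of the 10 genes were called, where 40.8% of 12185 tested genes were, 20% higher and 20.7% lower in cDC1. Fasn (1.09 ± 0.167, adjusted p = 2.2e-05), Scd1 (1.40 ± 0.331, adjusted p = 0.00186) and Fads1 (1.43 ± 0.201, adjusted p = 7.88e-06) were higher in cDC1 than in cDC2, and Elovl5 was lower (−0.59 ± 0.171, adjusted p = 0.00855). For each of the 4 the WT libraries of the subsets did not overlap, and each call held in all 24 alternatives. In CPM, Fasn lay at 276, 295 and 216 in WT cDC1 against 127, 135, 128 and 102 in WT cDC2, and Fads1 at 49.2, 50.6 and 37.1 against 17.3, 24.8, 12.4 and 13.1. Acaca (0.46 ± 0.208, adjusted p = 0.085) and Elovl6 (0.83 ± 0.351, adjusted p = 0.0641) were also separate between the subsets but did not pass. The share of all tested genes with such separate libraries was not counted, so the separation does not set these genes apart. Srebf1 (−0.16 ± 0.177), Acly (−0.11 ± 0.107) Scd2 (−0.08 ± 0.163) and Fads2 (0.66 ± 0.697) overlapped.

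Per kb of exon, Elovl5 was the most abundant of the 10 in both WT subsets, at 53.9 ± 3.17 CPM per kb in cDC1 (SD, n = 3) and 81.2 ± 7.78 in cDC2 (n = 4). In WT cDC1 it was followed by Acly (41 ± 0.875), then Scd2 (24.7 ± 4.33) and Fasn (24 ± 3.77), whose ranges overlapped, Srebf1 (14.1 ± 2.17), Fads1 (9.48 ± 1.54), Scd1 (3.22 ± 0.634) and Acaca (1.63 ± 0.4). Elovl6 (0.724 ± 0.23) and Fads2 (0.498 ± 0.227) came last and overlapped. In WT cDC2 Srebf1 stood above Fasn (15.8 ± 3.67 against 11.2 ± 1.32 CPM per kb), and Scd1 and Acaca overlapped at 1.22 ± 0.36 and 1.18 ± 0.0882. In cDC1 of Xbp1 KO, Srebf1 stood below Fads1, at 6.6 ± 0.448 against 9.48 ± 1.53 CPM per kb.

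**Figure D3:**
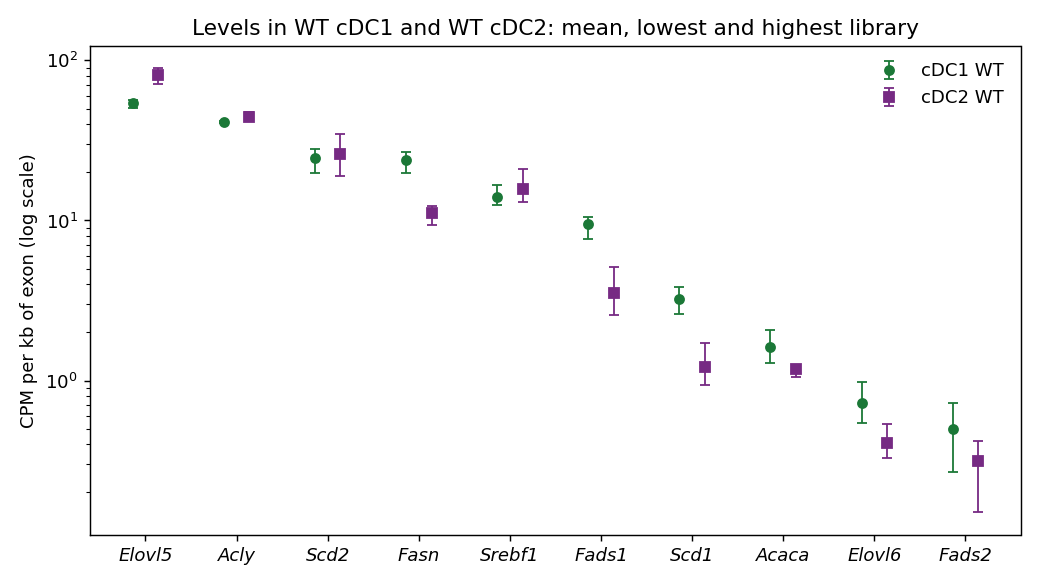
Level of each gene (y axis, CPM per kb of exon, log scale) in WT cDC1 (circles, 3 libraries) and WT cDC2 (squares, 4 libraries), as the mean with bars from the lowest to the highest library. Fasn, Scd1 and Fads1 are higher in cDC1 and Elovl5 is higher in cDC2.

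Genes around this route were counted in lists by role, and their counts in cDC1 stand beside 7.75%, 11.2% and 12.7% of all tested genes called in the 3 comparisons, which is 880, 1270 and 1437 genes. Of 13 tested genes of SREBP and LXR control, 3 were called lower in Xbp1 KO than in WT and 4 higher in Xbp1-Ire1 KO than in Xbp1 KO. Srebf2, which encodes the sterol-responsive SREBP2, lay at 294, 398 and 314 CPM in Xbp1-Ire1 KO, at 89.5, 87 and 83 CPM in the Xbp1 KO libraries and at 399, 382 and 228 CPM in WT. The Xbp1 KO libraries stood far below both other groups, as for Srebf1, and Srebf2 fell by 1.97 against WT (SE 0.194, adjusted p = 2.28e-05) and was 1.97 ± 0.194 higher in Xbp1-Ire1 KO than in Xbp1 KO (adjusted p = 1.99e-05). Insig1, which holds SREBP in the ER, fell by 1.48 in Xbp1 KO (SE 0.223, adjusted p = 0.000923). Scap, which escorts SREBP to the Golgi, fell by 0.78 (SE 0.159, adjusted p = 0.00742), a call lost when WT-named replicate 3 was the only WT library (−0.35, adjusted p = 0.326). In Xbp1-Ire1 KO against WT, 2 genes were higher and 1 lower, among them the nuclear receptor gene Pparg (1.54 ± 0.287, adjusted p = 0.00499), whose call was lost against the WT-named library (1.47, adjusted p = 0.0747).

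Sterol synthesis genes are known targets of SREBP proteins. Of 20 tested, 12 were lower and 0 higher in Xbp1 KO than in WT, 10 were higher and 0 lower in Xbp1-Ire1 KO than in Xbp1 KO, and 1 was lower in Xbp1-Ire1 KO than in WT. Their median log2 fold change in Xbp1 KO against WT was −0.99, beside −0.31 for the 10 fatty acid genes. Sqle, squalene epoxidase, averaged 52.5 ± 8.46 CPM in Xbp1-Ire1 KO, 21.3 ± 0.102 CPM in Xbp1 KO and 60.4 ± 6.63 CPM in WT (SD, n = 3 each). It fell by 1.52 in Xbp1 KO against WT (SE 0.159, adjusted p = 4.19e-05). Cyp51, lanosterol demethylase, averaged 72.2 ± 14.5 CPM in Xbp1-Ire1 KO, 26 ± 3.41 CPM in Xbp1 KO and 75.7 ± 6.32 CPM in WT and fell by 1.56 in Xbp1 KO against WT (SE 0.173, adjusted p = 6.33e-05). The list was known to be lower in Xbp1 KO from earlier results on these data, so its direction is not independent evidence.

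**Figure D4:**
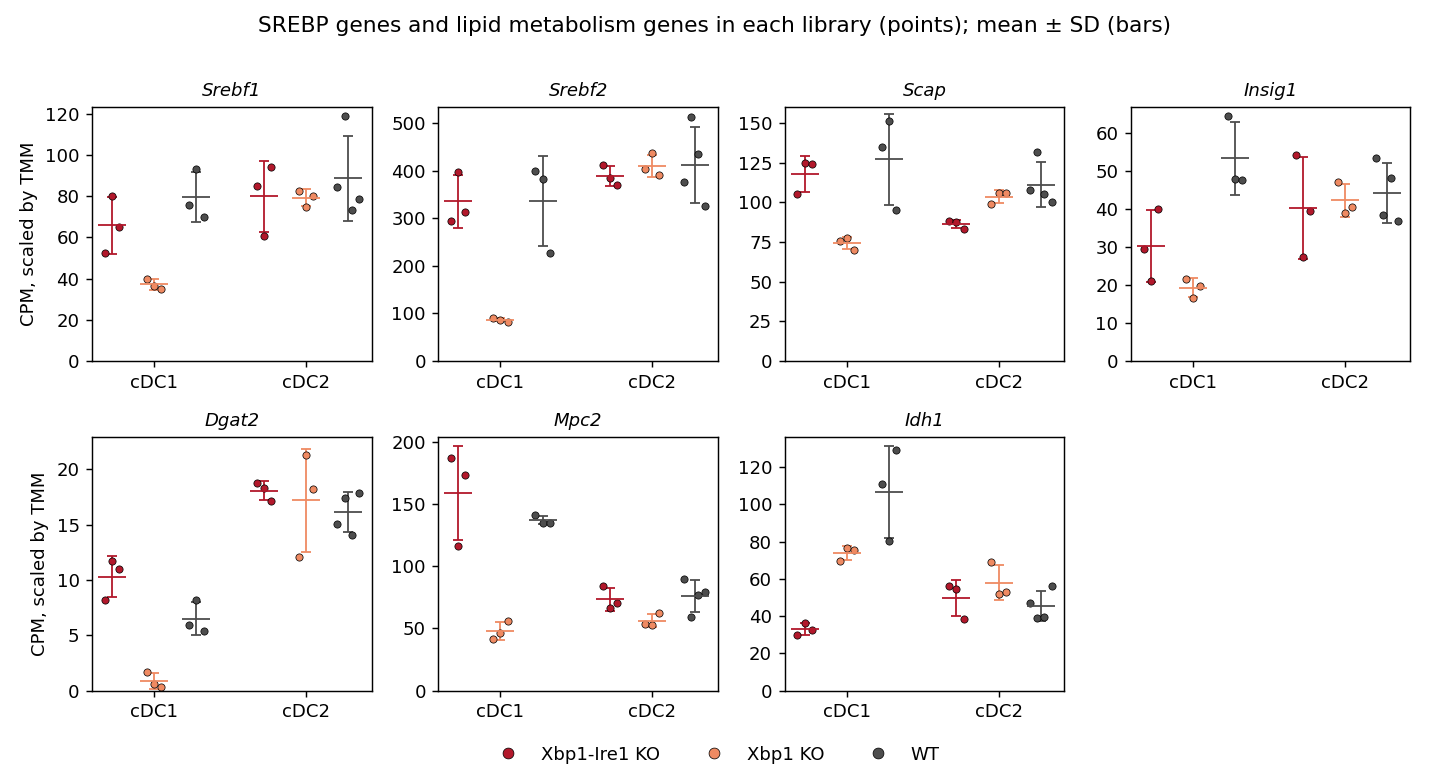
Levels of Srebf1 and 6 genes of SREBP control and lipid metabolism (y axis, CPM scaled by TMM, each panel from 0) in each library of cDC1 and cDC2, with bars for the mean ± SD of each genotype. In cDC1 the Xbp1 KO libraries lie below all libraries of the other genotypes for Srebf1, Srebf2, Scap, Dgat2 and Mpc2, and for Insig1 only WT is separate from them. Idh1 is lowest in Xbp1-Ire1 KO, at 30.1 to 36.5 CPM.

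Among genes that supply substrate and NADPH, 4 of 14 were lower in Xbp1 KO than in WT and 2 lower in Xbp1-Ire1 KO than in WT. Between the knockouts, Mpc2, Taldo1 and Mdh1 were called higher in Xbp1-Ire1 KO than in Xbp1 KO, and Idh1 lower. Mpc2, a subunit of the mitochondrial pyruvate carrier, averaged 158 ± 37.5 CPM in Xbp1-Ire1 KO, 47.7 ± 7.18 CPM in Xbp1 KO and 137 ± 3.56 CPM in WT (SD, n = 3 each). It fell by 1.53 in Xbp1 KO against WT (SE 0.175, adjusted p = 8.57e-05) and was 1.75 ± 0.176 higher in Xbp1-Ire1 KO than in Xbp1 KO (adjusted p = 2.52e-05). Idh1, the cytosolic NADPH-producing isocitrate dehydrogenase, lay at 30.1, 36.5 and 32.7 CPM in Xbp1-Ire1 KO, at 69.8, 76.5 and 75.6 CPM in the Xbp1 KO libraries and at 111, 80.3 and 129 CPM in WT. It was lowest in all Xbp1-Ire1 KO libraries, by 1.68 on the log2 scale below WT (SE 0.169, adjusted p = 4.95e-05) and by 1.14 below Xbp1 KO (adjusted p = 0.000682).

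Of 25 tested acyl-CoA synthetase and glycerolipid genes, 4 were lower and 1 higher in Xbp1 KO than in WT, 1 was lower in Xbp1-Ire1 KO than in WT, and 6 were higher and 1 lower in Xbp1-Ire1 KO than in Xbp1 KO. Dgat2, which makes triacylglycerol, lay at 8.19, 11.7 and 11 CPM in Xbp1-Ire1 KO, at 1.7, 0.635 and 0.343 CPM in the Xbp1 KO libraries and at 5.97, 8.21 and 5.35 CPM in WT. It fell by 2.86 in Xbp1 KO against WT (SE 0.473, adjusted p = 0.00194) and was 3.53 ± 0.475 higher in Xbp1-Ire1 KO than in Xbp1 KO (adjusted p = 0.000337). Of 15 reported genes of uptake and lipid droplets, Pnpla2, the lipase that starts triacylglycerol breakdown, was called lower in Xbp1-Ire1 KO than in WT (−0.46 ± 0.126, adjusted p = 0.0424), a call lost in 8 of 17 alternatives with an adjusted p of up to 0.408. It averaged 103 ± 5.6 CPM in Xbp1-Ire1 KO, 120 ± 10.5 CPM in Xbp1 KO and 142 ± 15.5 CPM in WT. Of 18 other synthesis, elongation and desaturation enzymes, 2 were lower in Xbp1-Ire1 KO and 2 in Xbp1 KO, both against WT, and 1 was higher in Xbp1-Ire1 KO than in Xbp1 KO, counts that, over 18 genes, do not stand apart from the background shares. The last was Tecr, a reductase of chain elongation (0.58 ± 0.16, adjusted p = 0.03), a call lost in 6 of 15 alternatives. Of 22 fatty acid oxidation genes, 3 were higher in Xbp1-Ire1 KO than in WT, 1 was higher and 3 were lower in Xbp1 KO than in WT, and 5 were higher in Xbp1-Ire1 KO than in Xbp1 KO. In cDC2, edgeR called 0 genes of all 7 lists in each of the 3 comparisons.

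In WT cells, the counts of the lists stand beside 20% of all tested genes higher and 20.7% lower in cDC1 than in cDC2. Sterol synthesis had 8 higher and 0 lower of 20, SREBP and LXR control 4 and 1 of 14, substrate and NADPH supply 7 and 3 of 14, acyl-CoA and glycerolipid genes 6 and 7 of 26, and fatty acid oxidation 7 and 2 of 22. Of 16 reported genes of uptake and lipid droplets, 8 were higher and 3 lower in cDC1 than in cDC2. The fatty acid receptor gene Cd36 averaged 1000 ± 48.3 CPM in WT cDC1 and 18.1 ± 12.1 CPM in WT cDC2 (SD, n = 3 and 4; adjusted p = 1.45e-10). The lipid droplet coat gene Plin2 averaged 266 ± 14.5 CPM in WT cDC1 and 26.6 ± 9.54 CPM in WT cDC2 (adjusted p = 5.01e-09). The fatty acid binding gene Fabp5 went the other way, at 5.15 ± 1.17 CPM in WT cDC1 and 97.7 ± 22.8 CPM in WT cDC2 (adjusted p = 2.92e-09). Of 19 other synthesis, elongation and desaturation enzymes, 9 were higher and 2 lower in cDC1. Among them Cyb5a, which passes electrons to desaturases, averaged 254 ± 26.3 CPM in WT cDC1 and 69.9 ± 5.13 CPM in WT cDC2 (adjusted p = 1.45e-10). Hacd2, a dehydratase of chain elongation, averaged 86.4 ± 8.63 CPM in WT cDC1 and 29.1 ± 1.58 CPM in WT cDC2 (adjusted p = 2.6e-09).

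The genes whose levels were most like those of Srebf1 over the 9 cDC1 libraries were Ppapdc2 (Pearson r = 0.978), Rpa2 (0.972), Sppl2b (0.971), Lpcat1 (0.968) and Ptprs (0.964). They were picked for this likeness, over libraries that fall into 3 genotype groups. Of the other 9 genes of the route, Scd2 (0.781), Fasn (0.644) and Fads2 (0.623) were the most like Srebf1, and Elovl6 (−0.0521), Scd1 (−0.171) and Acaca (−0.306) the least.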

How the data were processed

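The deposited tables give raw counts per gene symbol for each library, and normalized log2 values. Per the submitters' processing notes, the authors used FastQC 0.11.4, Trimmomatic 0.35, TopHat2 2.1.0, SAMtools 0.1.19 and limma 3.42.2 with build mm10. Which tool counted the reads, and with which annotation, is not given in the sources used here. The deposited log2 values equal log2 CPM with 0.5 added per count, shifted by a constant for each library (−0.0755 to 0.125 for cDC1, −0.0301 to 0.0717 for cDC2). They were tested only in an alternative, with limma 3.58.1 within each subset. The counts were tested with edgeR 4.0.16 (R 4.3.3) after filterByExpr (minimum count 10, minimum total 15), with TMM scaling and the quasi-likelihood test, and p-values were adjusted by Benjamini-Hochberg over all tested genes. Genotypes were fitted together within each subset, and WT subsets and interactions on all 19 libraries. Standard errors are approximate, the absolute log2 fold change over the square root of F. Exon lengths and positions came from GENCODE M21 (GRCm38), where 23376 of the 24421 symbols matched. The 21 replicate pairs differed by more than sampling noise (chi-square per degree of freedom 9.17 to 75), so no library was counted as a duplicate. The highest values were WT pairs of an fl-fl with a WT-named library, at 75 and 71.7 in cDC1 and 52.3 to 69 in cDC2. WT pairs of the same name type had 13.6 in cDC1 and 24.8 and 15.3 in cDC2. The cause of this split was not tested. The procedure was tested on simulated data.

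The members and lists were chosen with earlier results of these data known. The rule names all 10 genes in each comparison. In the interactions, Acly, Acaca, Fasn, Scd2 and Fads1 are given by the range of their differences. In cDC2, genes other than Srebf1, Fasn, Scd1 and Elovl5 are given by the range of their levels, Fads2 with its differences too. A gene of the uptake list is not reported here and is left out of that list's counts. From each list, named genes come from the up to 4 called ones with the smallest adjusted p in a comparison, and 5 genes are named for likeness to the member with the smallest adjusted p over the 6 genotype comparisons. By the check used, the replicate numbers of the titles were not taken to pair the samples, within or across subsets. The check cannot exclude that cDC1 and cDC2 libraries came from the same animals. Alternatives were DESeq2 1.42.0, its size factors, no filter or a minimum count of 30, a replicate block, only fl-fl or only WT-named WT libraries, limma on the deposited log2 values of a subset, and leaving out each library. Figures used matplotlib 3.10.9 under Python 3.11.15.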

Additional observations from a re-analysis of the deposited data

Results flagged for a closer look

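By the interaction test in edgeR, 9 genes of the 6 surrounding lists other than sterol synthesis had a genotype effect that differed between cDC1 and cDC2. None of the 10 fatty acid genes did, which over 10 genes does not set them apart from the background. Differences are given on the log2 scale as the effect in cDC1 minus that in cDC2. Of 111 genes of these lists tested, 2 (1.8%) were called for Xbp1-Ire1 KO against WT and 6 (5.41%) for Xbp1 KO against WT. For Xbp1-Ire1 KO against Xbp1 KO, 4 (3.6%) were called. Of all tested genes, 2.23%, 2.17% and 2.14% were called, so the first count lies near the background and the third not far from it. The lists were chosen with earlier results of these data known. Of 20 sterol synthesis genes, 0, 6 and 3 were called in the same order. For Xbp1-Ire1 KO against WT, the difference was −1.81 for Idh1 (adjusted p = 0.000277) and −0.68 for Cyb5a (adjusted p = 0.0437), and the Cyb5a call was lost in 18 of 24 alternatives. For Xbp1 KO against WT, it was −1.95 for Srebf2 (adjusted p = 4.82e-05) and −2.94 for Dgat2 (adjusted p = 0.000582). In the same comparison it was −1.40 for Insig1 (adjusted p = 0.0223), −1.08 for Mpc2 (adjusted p = 0.0136), −1.28 for Lpcat1, a phospholipid acyltransferase (adjusted p = 0.0141), and −0.57 for Acaa1a, a peroxisomal thiolase (adjusted p = 0.0418). The Acaa1a call was lost in 17 of 24 alternatives. That of Insig1 was lost without cDC1 Xbp1 KO replicate 2 or 3 (adjusted p = 0.0805 and 0.0514), cDC1 WT replicate 1 (0.0913), cDC2 Xbp1 KO replicate 1 (0.0775) or cDC2 WT replicate 4 (0.0513). The call of Mpc2 was lost without cDC1 Xbp1 KO replicate 1 (adjusted p = 0.056) or cDC2 Xbp1 KO replicate 3 (0.0517), and that of Lpcat1 without cDC2 Xbp1 KO replicate 2 (0.057). For Xbp1-Ire1 KO against Xbp1 KO, the difference was 2.03 for Srebf2 (adjusted p = 4.65e-05), 0.93 for Scap (adjusted p = 0.0149), 1.34 for Mpc2 (adjusted p = 0.00274) and 3.45 for Dgat2 (adjusted p = 0.000121). These 4 calls, and those of Idh1, Srebf2 and Dgat2 above, held in all 24 alternatives.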

How the results depend on the processing

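Of 100 results on the 10 genes (10 comparisons each), 10 were called, 4 of these lost the call in at least 1 alternative and 0 reversed, while 7 uncalled ones passed in at least 1 and 43 of the 90 uncalled ones changed sign. Counts are given for Xbp1-Ire1 KO against WT, Xbp1 KO against WT and Xbp1-Ire1 KO against Xbp1 KO, in that order. Against the WT-named cDC1 library alone, 0 and 1 of the 10 genes were called in the first and second of these in cDC1, and with DESeq2 1 was called in the interaction of Xbp1 KO against WT. Leaving out each library gave 0 to 2, 1 to 3 and 1 to 3 called genes of the 10 in cDC1, 0 to 0 in each cDC2 comparison, 4 to 5 between WT subsets and 0 to 0, 0 to 2 and 0 to 0 in the interactions. Over all genes it gave 430 to 1966, 471 to 2926 and 648 to 2400 in cDC1, 3 to 4, 9 to 15 and 2 to 8 in cDC2, 4158 to 5087 between WT subsets and 170 to 298, 182 to 418 and 194 to 335 in the interactions. In cDC1 the highest counts came without WT replicate 3 and the lowest without Xbp1-Ire1 KO replicate 1, WT replicate 1 and Xbp1 KO replicate 2. Against fl-fl WT alone, all genes called were 1966 and 2926 in cDC1 and 485 and 740 in cDC2. Against WT-named WT alone they were 580 and 345 in cDC1 and 6 for Xbp1 KO in cDC2. DESeq2 called 1358 genes for Xbp1-Ire1 KO against WT in cDC1, 5, 48 and 11 in cDC2, and 463, 431 and 462 in the interactions, and no filter gave 21 for Xbp1 KO against WT in cDC2. The cause of these shifts was not tested. A group left with 1 library is assumed to vary like the others. Same-numbered libraries of a subset had correlations of −0.102 to 0.19, with 5 of 18 over 0.1, and across subsets −0.0746 to 0.209, with 5 of 27 over 0.1, so the replicate numbers of the titles were not taken to pair them. The 3 WT pairs across subsets had 0.0963, 0.182 and 0.146, of which the first is just under 0.1. Library names carry other numbers for some libraries, and by these the 6 same-numbered pairs of a genotype across subsets had −0.198 to 0.182, 1 of them over 0.1. With a replicate block, 2, 2 and 2 of the 10 genes were called in cDC1, 0, 0 and 0 in cDC2, 4 between WT subsets and 0, 0 and 0 in the interactions, and 847, 1211 and 1376 of all genes in cDC1. Another scaling moved the median of all genes by at most 0.0222 on the log2 scale. Fads2, with 2 to 34 counts a library, limits what could be seen of its changes.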
